A study of Rattus norvegicus with 9 samples.

Results

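Erp27, the protein disulfide isomerases Pdia3, Pdia4, Pdia6, P4hb and Erp44, the lectin chaperones Calr and Canx, and the chaperone Hsp90b1 make up a set of 9 genes that fold proteins in the endoplasmic reticulum (ER). They were chosen by symbol from a deposited table of 22077 intact rat genes, and each matched 1 line. All 9 were among the 12447 genes that passed the filter on low counts. The set was put together with Erp27's difference between groups already known from the same exon reads, so the members' values are given as a description, without p-values. Total RNA was sequenced from peripheral blood mononuclear cells (PBMC, the lymphocytes and monocytes of blood) of wild-type Sprague-Dawley rats. The 3 groups of 3 libraries were normoxia at day 0, SuHx at day 28 and SuHx at day 56. SuHx stands for Sugen-hypoxia, in which a VEGF receptor inhibitor and a spell of low oxygen give rats pulmonary arterial hypertension. The sources used here do not give the animals' age and sex, any pooling, or the lengths of the treatment steps. The only controls are those of day 0, so day, age and treatment cannot be told apart.

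Protein disulfide isomerases carry thioredoxin-like domains and form, break or reshuffle the disulfide bonds of secreted and membrane proteins as these fold. Calreticulin and calnexin hold glycoproteins by their sugar chains and bring Pdia3 (ERp57) to them. Erp27 is a relative of these isomerases without a redox-active site, known to bind unfolded proteins and Pdia3. In blood cells the same machinery serves antibody assembly in the B lineage, the folding of surface receptors, and the loading of peptides on MHC class I, in which Pdia3 and calreticulin take part.

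The libraries held 22148400 to 39947430 exon reads. The 5 most abundant genes, from the globin loci, took 43.0% to 56.3% of them in normoxia, 1.42% to 29.0% at day 28 and 40.5% to 44.4% at day 56. Levels were therefore compared as CPM, counts scaled to a common total, with library sizes adjusted by the trimmed mean of M values (TMM). On this scale 3 reads were worth 0.0762 to 0.195 CPM. The share of intron reads among all gene reads can differ with RNA quality. Globin exon reads count in its total, so it also falls as the globin share rises. It was 14.6% in the first normoxia library and 6.60% and 5.37% in the others. At day 28 it was 14.2% to 24.9%, and at day 56 11.9% to 16.9%. Because it differed between the groups, a fit with it as a covariate cannot fully tell share and group apart. Markers of T cells, B cells, NK cells and monocytes were detected in all groups, and those of red cells and platelets were present too. Whether the replicates came from separate animals is not stated. The p-values therefore cover only how far these samples spread, and that spread may be technical.

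The promoters of several of these genes carry the ER stress response element (ERSE), the box through which ATF6 and XBP1 are known to act with NF-Y. Its letters, CCAAT and CCACG with any 9 bases between them, were searched on both strands in the 300 bases around the start (250 before, 50 after) of 33469 RefSeq promoters on the GRCr8 assembly. They were found in 22 promoters, or 0.0657% of all. Of the 9 members, 6 had a promoter in this table (Pdia4, P4hb, Erp44, Calr, Canx and Hsp90b1), and 3 of these held the element. The sequences below are shown because they carry it, 5' to 3' on the gene's strand, with the element in capitals. That of Hsp90b1 (chr7:23012294-23012543, minus strand) holds 2 copies in opposite directions, and those of Calr (chr19:40213117-40213178, plus strand) and Canx (chr10:35158044-35158107, minus strand) hold 1 each.
Hsp90b1: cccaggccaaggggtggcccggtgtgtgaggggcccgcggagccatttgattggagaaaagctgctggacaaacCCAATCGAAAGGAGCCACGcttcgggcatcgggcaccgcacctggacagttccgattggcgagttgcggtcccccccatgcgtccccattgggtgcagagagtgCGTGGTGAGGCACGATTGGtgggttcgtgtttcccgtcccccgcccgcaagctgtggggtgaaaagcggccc
Calr: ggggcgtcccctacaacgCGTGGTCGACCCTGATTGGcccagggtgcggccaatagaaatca
Canx: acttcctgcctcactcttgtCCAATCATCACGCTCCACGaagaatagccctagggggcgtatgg

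For comparison, 80 genes of the 6 other ER lists described further on had a promoter in the table, and 7 of them held the element (Calr4, Creld2, Derl3, Dnajc3, Ero1b, Hspa5 and Xbp1). The sequence of Hspa5 (chr3:38452948-38453015, plus strand), which encodes the chaperone BiP, shows it 43 to 25 bases before the start. Herpud1, the gene of these lists with the lowest adjusted p in the tests below, instead held the related ERSE-II (chr19:10614796-10614856, minus strand), with the letters ATTGG and CCACG around any 1 base, which was in 17 promoters (0.0508%), among them 0 of the 6 members and 3 of the 80 other ER genes.
Hspa5: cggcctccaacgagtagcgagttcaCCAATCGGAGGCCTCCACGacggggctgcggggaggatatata
Herpud1: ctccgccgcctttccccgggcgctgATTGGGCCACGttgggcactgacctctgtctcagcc

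Other motifs searched in the same way were the core of the UPR element, TGACGTGG, in 199 promoters (0.595%), and the core of the xenobiotic response element bound by the aryl hydrocarbon receptor, TNGCGTG, in 1637 promoters (4.89%). Neither was in the windows of the 6 members, and Erp27 had no window in this table. Of the 80 other ER genes, 3 held the UPR core (Dnajc10, Hyou1 and Txndc11). The xenobiotic core was in 6 of them (Cnpy2, Fkbp11, Gpx7, Ppp1r15a, Sdf2 and Syvn1). In the window of Hyou1, not printed here, an ERSE-II and a UPR core share bases. A match describes letters only.

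Erp27 (ENSRNOG00000005787, chr4:170893945-170912629 on rn6, 7 exons) was low in normoxia and an order of magnitude higher in both SuHx groups. The normoxia libraries had 2.75, 4.01 and 3.18 CPM, from 66, 109 and 49 exon reads. Those of day 28 had 52.6, 36.6 and 38.2 CPM, from 1978, 1440 and 1194 reads. Those of day 56 had 65.3, 28.7 and 67.1 CPM, from 1752, 684 and 2001 reads. Every SuHx library lay above every normoxia library, while the groups of day 28 and day 56 overlapped. The means were 3.31 ± 0.642 CPM in normoxia, 42.4 ± 8.83 at day 28 and 53.7 ± 21.6 at day 56 (SD, n = 3 each), ratios of 12.8 and 16.2. The fitted log2 fold change was 3.67 (SE 0.35) at day 28 and 4.01 (SE 0.36) at day 56. By size of rise these were places 17 and 23 among the 12447 genes. The difference between day 56 and day 28 was 0.34 (SE 0.31), with the second library of day 56 below all 3 of day 28. In bulk RNA, fewer or more cells of a type and less or more RNA per cell cannot be told apart.

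**Figure D1:**
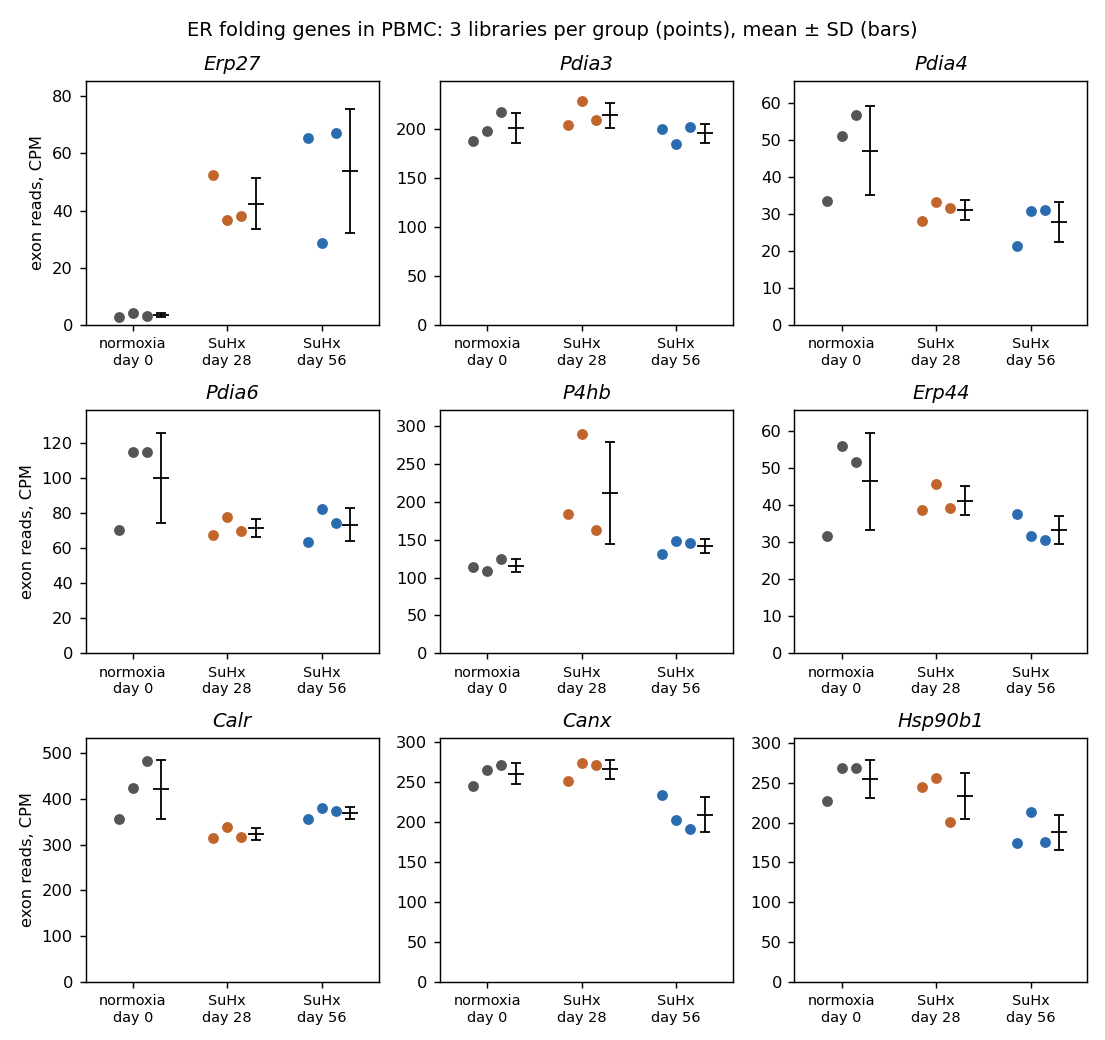
Exon reads of each of the 9 genes (y axis, CPM, from 0) in normoxia, SuHx day 28 and SuHx day 56, with 1 point per library and the mean ± SD beside each group. Erp27 lies between 2.75 and 4.01 CPM in normoxia and between 28.7 and 67.1 CPM in the 6 SuHx libraries, while the groups of the other genes lie much closer together.

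The 2 comparisons with normoxia share their control libraries. At an adjusted p under 0.05, edgeR's quasi-likelihood test with Benjamini-Hochberg adjustment called 0.129% of genes at day 28 (0.0884% higher and 0.0402% lower) and 7.12% at day 56 (3.42% higher and 3.7% lower). Of the 9 members it called 1 at each day, Erp27. DESeq2 called 13.1% and 17.9% of genes and 2 members at each day, adding P4hb at day 28 and Pdia4 at day 56. Since the set was built around this contrast, nothing is read from these counts of members or from the next ones. Without the third normoxia library no member was called at day 28, beside 0.0158% of all genes. With the intron share as a covariate none was called there either, beside 0.00803%. Erp27 was at log2 fold changes between 3.52 and 3.84 at day 28 over all 18 alternatives. Without the first normoxia library, 45.2% of genes were called at day 28 and 43% at day 56, and 5 members at each day.

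Reads of Erp27 differed in the same direction in each class that the table allows to be counted. Junction reads are part of the exon reads, at 74.0% of those of Erp27, so they largely repeat the exon result. Reads across exon junctions averaged 2.33 ± 0.405 CPM in normoxia, 31.3 ± 6.48 at day 28 and 40.0 ± 16.1 at day 56 (SD, n = 3), ratios of 13.4 and 17.2. Intron reads, a deposited column of their own, averaged 6.76 ± 2.07, 55.1 ± 15.3 and 59.4 ± 24.8 CPM (SD, n = 3), ratios of 8.16 and 8.79. Intron reads thus outnumbered exon reads in 8 of the 9 libraries. There were 3.23, 1.66 and 1.49 intron reads per exon read in normoxia, 1.34, 1.50 and 1.05 at day 28, and 1.27, 1.17 and 0.916 at day 56. The first normoxia library, with its higher intron share over all genes, had the highest ratio. Every exon read of Erp27 was uniquely mapped.

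The next gene on the chromosome, Arhgdib, starts 1293 bases past the end of Erp27. Its mean was 1177 ± 307 CPM in normoxia, 703 ± 72.6 at day 28 and 742 ± 38.5 at day 56 (SD, n = 3), lower where Erp27 was higher. Its log2 fold change was -0.74 at day 28 (edgeR adjusted p = 0.110) and -0.67 at day 56 (edgeR adjusted p = 0.105), so neither passed. Mgp, a gene of vessel walls and cartilage that lies 33720 bases away on the other side, had 0 to 0.389 CPM and was not tested. The sources used here do not say whether the counting used strand.

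**Figure D2:**
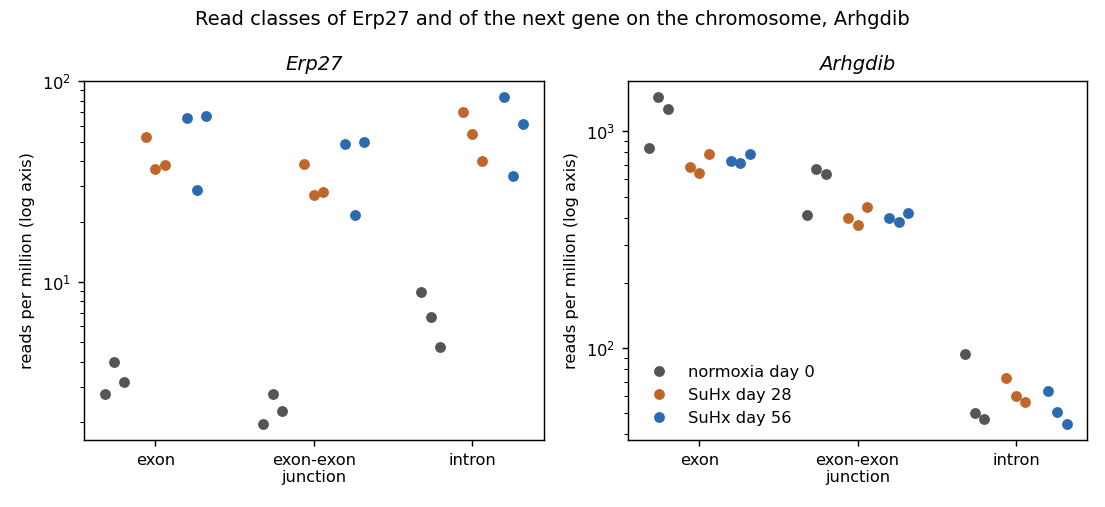
Reads in CPM (y axis, log scale) on exons, across exon junctions and in introns of Erp27 and of its neighbour Arhgdib, with 1 point per library coloured by group. For Erp27 all 6 SuHx libraries lie above all 3 normoxia libraries in every class, whereas the exon reads of Arhgdib are lower in the SuHx libraries.

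The column headers carry library numbers whose meaning is not given. By these numbers the first libraries of normoxia and day 56 stand together, and so do the other 4 of these groups. Erp27 was at 2.75 against 65.3 CPM in the first set, and at 3.18 and 4.01 against 28.7 and 67.1 CPM in the second. The numbers of day 28 form a run of their own, so number and group cannot be told apart there.

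No list of cell type markers had its summed level higher in both SuHx groups without overlap, as Erp27 did. Monocyte markers (6 of 7 in the table, all detected) summed to 2017 to 4289 CPM in normoxia, 3081 to 9948 at day 28 and 1598 to 2533 at day 56. B cell markers (5 of 6 in the table, all detected) summed to 783 to 1465, 433 to 782 and 368 to 623 CPM, lower in both SuHx groups. Plasma cell markers (6 of 6) summed to 67.5 to 106, 54.3 to 72.1 and 98.6 to 113 CPM. Their median log2 fold change at day 56 was nonetheless -0.38, with 1 of the 6 called higher by edgeR. Platelet markers (6 of 6) summed to 718 to 3117, 547 to 849 and 1778 to 3554 CPM. Their part in the differences of the 9 genes was not tested.

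Of the enzymes, P4hb (ENSRNOG00000036689, chr10:109736457-109747987), the classical protein disulfide isomerase that is also a subunit of prolyl 4-hydroxylase, was the only other member higher in both SuHx groups without overlap. It had 113, 109 and 125 CPM in normoxia, 184, 289 and 163 at day 28, and 131, 149 and 145 at day 56. The spread at day 28 came from the second library, which was also the one with the highest monocyte marker sum, 9948 CPM against 4174 and 3081 in the other 2. Neutrophil markers (6 of 6 in the table) were highest in that library too, at 257 CPM against 94.5 and 97.8, and summed to 40.3 to 88.8 CPM in normoxia and 54.7 to 88.3 at day 56. Their part in the value of P4hb was not tested. Its log2 fold change was 0.87 (SE 0.22) at day 28 and 0.29 (SE 0.22) at day 56. Day 56 lay below day 28 by -0.58 (SE 0.22), or -0.29 without that library, and the 2 groups did not overlap.

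Pdia3 (ENSRNOG00000015018, chr3:113376982-113400707), the isomerase that works with the lectins and that Erp27 binds, had nearly the same level throughout. Its values were 187, 198 and 218 CPM in normoxia, 204, 228 and 209 at day 28, and 200.1, 184 and 201 at day 56. The log2 fold change was 0.09 (SE 0.15) at day 28 and -0.04 (SE 0.15) at day 56, and normoxia overlapped both SuHx groups. Of its exon reads 83.4% were uniquely mapped, the lowest share of the 9, so part of its count may belong to a copy elsewhere in the genome. With uniquely mapped reads alone the value at day 56 was 0.06, and it was above 0 in 3 of 18 alternatives.

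Pdia4 (ENSRNOG00000006228, chr4:77470635-77489535), also called ERp72, was lower in the SuHx groups. It had 33.5, 51.1 and 56.6 CPM in normoxia, 28.0, 33.3 and 31.7 at day 28, and 21.4, 30.7 and 31.0 at day 56. Normoxia overlapped neither SuHx group, although its first library lay only just above day 28. The log2 fold change was -0.60 (SE 0.22) and -0.76 (SE 0.22). When the intron share was added as a covariate it became 0.01 and -0.47.

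Pdia6 (ENSRNOG00000050197, chr6:42568219-42585652), an isomerase that associates with BiP, showed the same split within normoxia, with 70.6, 115 and 115 CPM. Its levels were 67.4, 77.5 and 69.9 CPM at day 28 and 63.3, 82.2 and 74.3 at day 56. Only the first normoxia library fell within the range of the SuHx groups. The log2 fold change was -0.48 (SE 0.21) and -0.45 (SE 0.21), or -0.01 and -0.22 once the intron share was a covariate.

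Erp44 (ENSRNOG00000005841, chr5:63937783-64030901), which retains and retrieves unassembled clients and Ero1 in the early secretory pathway, had 31.6, 56.0 and 51.8 CPM in normoxia. It had 38.7, 45.7 and 39.1 CPM at day 28 and 37.7, 31.6 and 30.6 at day 56. Both SuHx groups overlapped normoxia through its first library, and day 56 lay wholly below day 28. The log2 fold change was -0.17 (SE 0.22) at day 28 and -0.48 (SE 0.22) at day 56. The former turned to 0.15 once the intron share was a covariate.

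Of the lectins, Calr (ENSRNOG00000003029, chr19:25956770-25961666), the soluble lectin calreticulin, had 356, 425 and 484 CPM in normoxia, 315, 339 and 316 at day 28, and 355, 380.0 and 374 at day 56. It was lower without overlap at day 28, with a log2 fold change of -0.38 (SE 0.18), or -0.16 once the intron share was a covariate. At day 56 it overlapped normoxia, with -0.19 (SE 0.18), and it lay above day 28 in every library.

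Canx (ENSRNOG00000003343, chr10:35800941-35833861), the membrane-bound lectin calnexin, had 246, 266 and 271 CPM in normoxia, 252, 275 and 272 at day 28, and 234, 203 and 191 at day 56. It overlapped normoxia at day 28, with a log2 fold change of 0.03 (SE 0.16). At day 56 it was lower than in every library of both other groups, with -0.32 (SE 0.16) against normoxia and -0.35 (SE 0.16) against day 28. The first normoxia library did not stand as far apart here as it did for Pdia4, Pdia6 and Erp44.

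Hsp90b1 (ENSRNOG00000026963, chr7:27226568-27240533), the ER paralogue of Hsp90 known as Grp94, had 227, 268 and 268 CPM in normoxia, 245, 256 and 201 at day 28, and 174, 213 and 176 at day 56. Day 56 lay wholly below normoxia, with a log2 fold change of -0.44 (SE 0.18). Day 28 overlapped both, with -0.12 (SE 0.18) against normoxia.

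By overlap of the libraries alone, 2 members were wholly higher (Erp27 and P4hb) and 2 wholly lower (Pdia4 and Calr) at day 28, where 11.4% and 11.8% of all tested genes were. At day 56, 2 were wholly higher (Erp27 and P4hb) and 3 wholly lower (Pdia4, Canx and Hsp90b1), against 15.6% and 14.9% of all tested genes. The median log2 fold change of the 9 was -0.12 at day 28 and -0.32 at day 56, beside -0.01 and -0.04 over all tested genes. Since these members were chosen in view of such values, the counts describe them only.

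**Figure D3:**
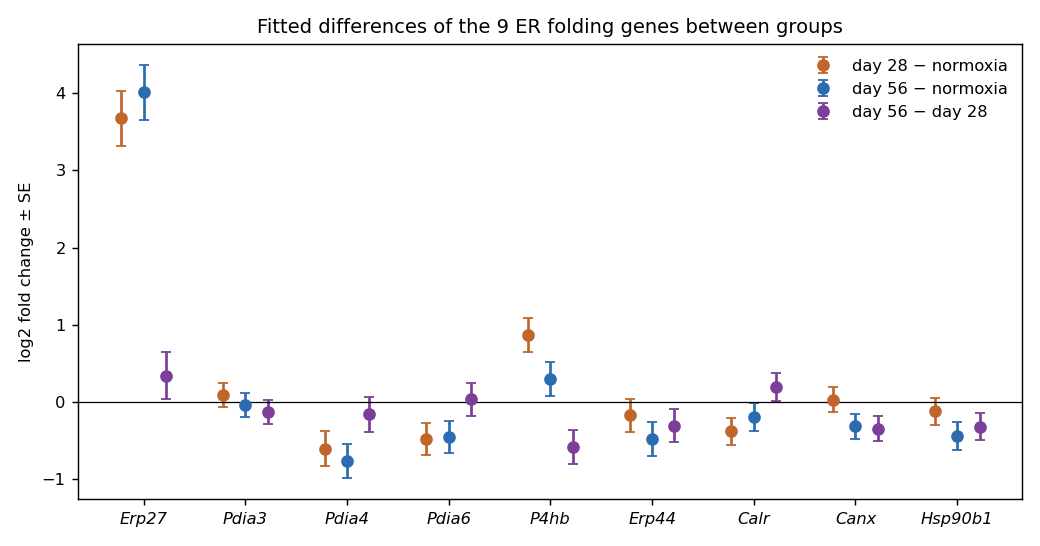
Fitted log2 fold change ± SE (y axis) of the 9 genes for day 28 against normoxia, day 56 against normoxia, and day 56 against day 28. Erp27 stands at 3.67 and 4.01 against normoxia, and the other 8 lie between -0.76 and 0.87.

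Between day 56 and day 28, edgeR called 0.546% of all tested genes (0.426% higher and 0.121% lower) and none of the 9. Calr was wholly higher at day 56, where 17.8% of all tested genes were. Pdia3, P4hb, Erp44 and Canx were wholly lower, where 17.4% were. The log2 fold changes of the 9 ran from -0.58 for P4hb to 0.34 for Erp27. In this comparison the globin share also differed, from 1.42% to 29.0% at day 28 and from 40.5% to 44.4% at day 56, and its part was not tested.

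Levels of different genes were compared only in the deposited RPKM (reads scaled by exon length and by mapped reads), a scale that falls as the globin share of a library rises. On it Calr was the most abundant member in each group, at 140.3 ± 10.5 RPKM in normoxia, 184 ± 21.3 at day 28 and 145 ± 7.11 at day 56 (SD, n = 3). Pdia3 was second in normoxia, at 67.1 ± 10.8 RPKM (SD, n = 3). Pdia4 was the lowest of the 8 others in each group, at 12.3 ± 0.801, 14.1 ± 1.48 and 8.72 ± 1.73 RPKM (SD, n = 3). Erp27 had 2.18, 2.38 and 1.62 RPKM in normoxia, 59.6, 40.0 and 35.8 at day 28, and 47.6, 21.5 and 47.6 at day 56.

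A ratio within a library is free of the globin share. Relative to Pdia3, its known partner, the RPKM of Erp27 was 2.75%, 3.80% and 2.74% in normoxia. It was 48.2%, 30.0% and 34.2% at day 28, and 61.1%, 29.2% and 62.3% at day 56. Erp27 thus ranked 9 of 9 in each normoxia library, 5, 7 and 7 at day 28, and 3, 7 and 3 at day 56. In normoxia it made up 0.532% ± 0.0838 of the summed RPKM of the 9 genes, against 6.85% ± 1.66 at day 28 and 9.06% ± 3.55 at day 56 (SD, n = 3). The share of Pdia3 was 17.3% ± 1.21, 18.3% ± 0.743 and 17.7% ± 0.618 in the same order (SD, n = 3). The share of P4hb was 7.54% ± 0.887 in normoxia, 13.5% ± 3.15 at day 28 and 9.69% ± 0.671 at day 56 (SD, n = 3).

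**Figure D4:**
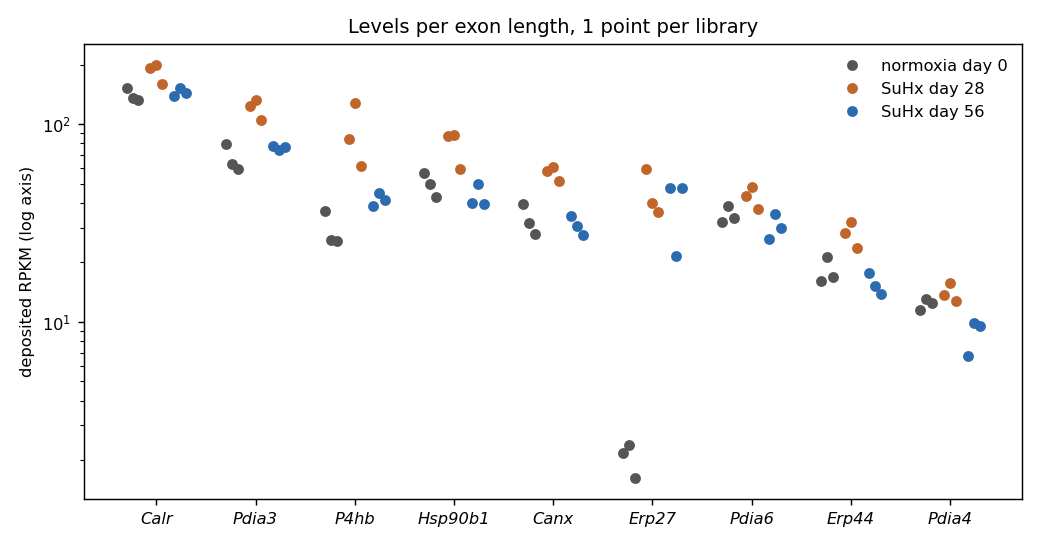
Deposited RPKM (y axis, log scale) of the 9 genes, with 1 point per library coloured by group and genes ordered by their highest group mean. Erp27 is the lowest of the 9 in normoxia, at 1.62 to 2.38 RPKM, and lies amid the other genes in the SuHx groups.

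The genes whose log2 CPM followed that of Erp27 most closely over the 9 libraries were Hmgn5b (Pearson r = 0.972), Arf6 (0.966), Ahrr (0.964), Clint1 (0.952) and Wscd1 (0.951). Only 8.62% of the exon reads of Hmgn5b were uniquely mapped, so its count is mostly shared with other places in the genome. Wscd1 rested on few exon reads, with 4, 3 and 3 in normoxia, 21, 31 and 24 at day 28, and 22, 11 and 30 at day 56. The 9 points form 3 groups of 3, so these correlations reflect the difference between groups and are a description. Ahrr, the aryl hydrocarbon receptor repressor, had 0 exon reads in all 3 normoxia libraries, 6.54, 4.54 and 3.52 CPM at day 28, and 3.21, 5.59 and 3.95 at day 56. Arf6, a small GTPase of membrane traffic, had 90.5, 101 and 81.6 CPM in normoxia, 164, 152 and 146 at day 28, and 195, 172 and 172 at day 56. Among the members, r with Erp27 ran from -0.78 for Pdia4 to 0.57 for P4hb, and was 0.15 for Pdia3.

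The rest of the ER folding apparatus was followed in 6 lists with 88 genes, of which 85 were in the table and 78 were tested. At day 28 edgeR called 0 of the 78, beside 0.129% of all genes. At an unadjusted p under 0.05 there were 22, beside 3582 of all 12447 genes, and DESeq2 called 10, beside 13.1% of all genes. At day 56 edgeR called 3 of the 78, with 2 that rose and 1 that fell, beside 7.12% of all genes. At an unadjusted p under 0.05 there were 26, beside 3846 of all 12447 genes, and DESeq2 called 14, beside 17.9% of all genes. The median log2 fold change of the 78 was 0.12 and 0.06, with 43 higher and 35 lower at both days. Of all 12447 tested genes, 6168 were higher and 6279 lower at day 28. At day 56, 5847 were higher and 6600 lower, as background for the tallies of each list below. Without the first normoxia library, 37 of the 78 were called at day 28 (22 higher, 15 lower) and 38 at day 56 (22 higher, 16 lower), beside 45.2% and 43% of all genes.

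The sensors and factors of the unfolded protein response (16 tested of 17) included 11 that were higher and 5 lower at day 28, with a median of 0.40, and 14 higher and 2 lower at day 56, with a median of 0.53. The one that passed with edgeR was Ppp1r15a, which encodes GADD34, a regulatory subunit of the phosphatase that dephosphorylates eIF2-alpha. It had 18.5, 34.6 and 32.2 CPM in normoxia, 72.5, 95.1 and 32.6 at day 28, and 142, 148 and 167 at day 56. At day 56 every library lay above every normoxia and day 28 library. Its log2 fold change there was 2.42 (SE 0.38, edgeR adjusted p = 0.0118), and 1.23 (SE 0.37, adjusted p = 0.0971) at day 28. The day 56 call was lost once the intron share was a covariate (adjusted p = 0.0638) and without the third library of day 56 (adjusted p = 0.0505), while adjusted p in the other alternatives ran as low as 1.4e-08 with DESeq2.

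Of the 16 tested genes of this response, 8 had an unadjusted p under 0.05 with edgeR at day 28 and 5 at day 56. Over all 12447 genes there were 3582 and 3846. DESeq2 called Asns, Atf6, Ern1, Ppp1r15a and Ppp1r15b at day 28, beside 13.1% of all genes. At day 56 it called Atf6, Atf6b, Ppp1r15a and Ppp1r15b, beside 17.9%. Factors other than Ppp1r15a did not pass in either comparison with edgeR. Xbp1, spliced by the sensor IRE1, was at 0.67 (adjusted p = 0.166) and 0.27 (adjusted p = 0.548). Atf4, translated under eIF2-alpha phosphorylation, was at 0.10 (adjusted p = 0.854) and 0.53 (adjusted p = 0.312). Ddit3, which encodes CHOP, was at -0.23 (adjusted p = 0.571) and 0.66 (adjusted p = 0.136). In normoxia the first library was the lowest of its group for all 3 genes, with Atf4 at 104 CPM against 295 and 256.

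Glycoprotein quality control and ER-associated degradation (19 tested of 23) had 14 genes higher and 5 lower at day 28 and 12 higher and 7 lower at day 56, with medians of 0.22 at both. At an unadjusted p under 0.05 with edgeR there were 3 and 6, beside 3582 and 3846 of all 12447 genes. DESeq2 called Herpud1 at day 28, beside 13.1% of all genes. At day 56 it called Erlec1, Herpud1, Man1b1, Os9 and Prkcsh, beside 17.9%. Herpud1, a membrane component of the degradation machinery, rose at day 56. Its levels were 44.1, 39.5 and 37.5 CPM in normoxia, 90.4, 57.8 and 65.0 at day 28, and 217, 169 and 217 at day 56. The 3 groups did not overlap, and the order was normoxia, day 28, day 56. Its log2 fold change was 2.32 at day 56 (SE 0.21, edgeR adjusted p = 0.00109) and 0.81 at day 28 (SE 0.20, adjusted p = 0.0822). The call at day 56 held in all 18 alternatives, at adjusted p values up to 0.0119.

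The other isomerase relatives (12 tested of 15) had 5 higher and 7 lower at day 28 and 4 higher and 8 lower at day 56, with medians of -0.20 and -0.35. At an unadjusted p under 0.05 with edgeR there were 2 and 6, beside 3582 and 3846 of all 12447 genes. DESeq2 called Dnajc10 at day 28, and Dnajc10 and Txndc16 at day 56, beside 13.1% and 17.9% of all genes. Dnajc10, the reductase ERdj5 that clears disulfides for degradation, fell at day 56 with 24.4, 22.1 and 21.0 CPM against 30.4, 41.5 and 40.0 in normoxia. Its log2 fold change was -0.73 (SE 0.16, edgeR adjusted p = 0.0315). This call was lost in 9 of 18 alternatives, with adjusted p up to 0.140, among them each fit without the second or the third normoxia library or any library of day 56.

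BiP with its cochaperones and foldases (19 tested) had 6 higher and 13 lower at both days, with medians of -0.32 and -0.16, and none was called by edgeR. At an unadjusted p under 0.05 there were 4 and 6, beside 3582 and 3846 of all 12447 genes. DESeq2 called Dnajb9 at day 28, and Dnajb9 and Hspa5 at day 56, beside 13.1% and 17.9% of all genes. Hspa5, which encodes BiP, had 167, 301 and 288 CPM in normoxia, 396, 384 and 233 at day 28, and 406, 444 and 447 at day 56. On the log2 scale it stood at 0.42 (adjusted p = 0.321) and 0.78 (adjusted p = 0.103) with edgeR, the latter at an adjusted p of 0.0322 with DESeq2. Hyou1, the nucleotide exchange factor of BiP, was at 0.49 (adjusted p = 0.182) and 0.55 (adjusted p = 0.133).

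Of the oxidative folding genes (7 tested of 9), 3 were higher and 4 lower at both days and edgeR called none. At an unadjusted p under 0.05 there were 4 and 3, beside 3582 and 3846 of all 12447 genes. DESeq2 called Ero1a and Qsox1 at day 28 and Qsox1 at day 56, beside 13.1% and 17.9% of all genes. Ero1a, the oxidase that recharges P4hb, was at 0.57 (edgeR adjusted p = 0.116) and 0.06 (adjusted p = 0.852). The 5 peptide loading genes had 4 higher and 1 lower at both days, with none called by edgeR or DESeq2 and 1 and 0 at an unadjusted p under 0.05. Tapbp, the tapasin that is disulfide-linked to Pdia3 in the loading complex, was at 0.21 (adjusted p = 0.437) and 0.37 (adjusted p = 0.186).

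**Figure D5:**
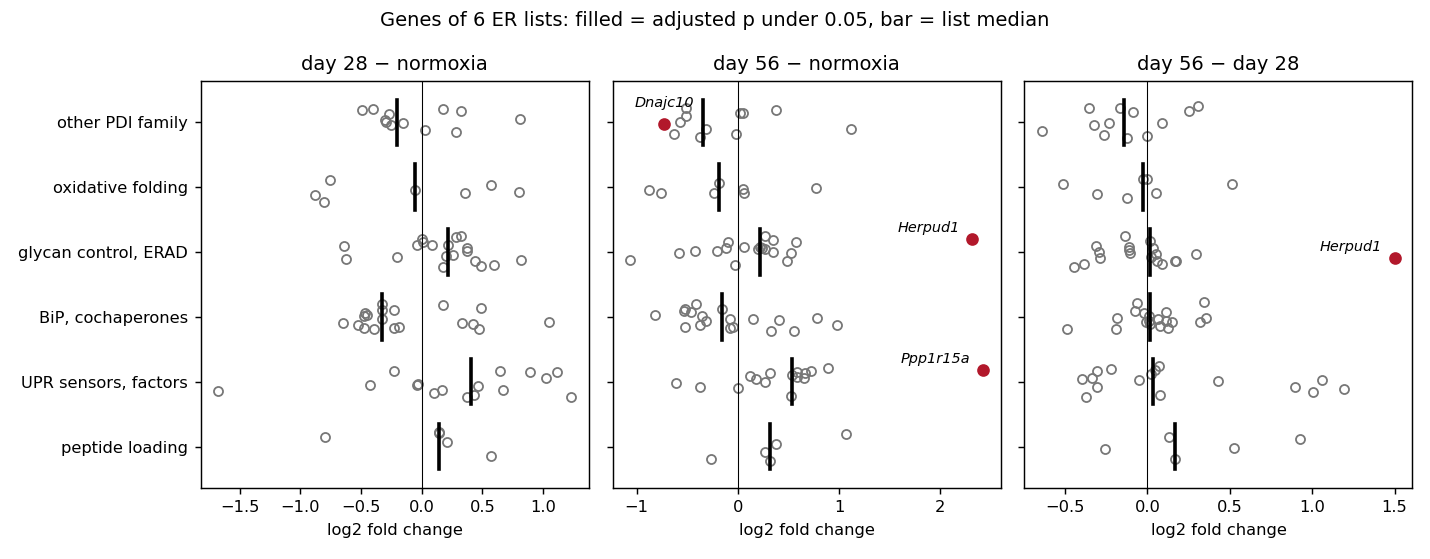
Log2 fold change (x axis) of each tested gene in the 6 other ER lists (rows) for the 3 comparisons, with filled points where the edgeR adjusted p was under 0.05 and a bar at each list's median. Herpud1 stands at 2.32 and Ppp1r15a at 2.42 for day 56 against normoxia, far from the other genes of their lists.

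From day 28 to day 56 edgeR called 1 of the 78 genes, beside 0.546% of all genes. It was Herpud1, which was 1.50 higher on the log2 scale (SE 0.20, adjusted p = 0.0285). DESeq2 called 4 (Ddit3, Herpud1, Ppp1r15a and Trib3), beside 7.93% of all genes. Ppp1r15a was at 1.19 (SE 0.36, edgeR adjusted p = 0.132) and Ddit3 at 0.90 (SE 0.27, edgeR adjusted p = 0.132), while Hspa5 was at 0.36 (SE 0.28, edgeR adjusted p = 0.562). The call of Herpud1 was lost without the second library of day 28 or without any one library of day 56, with adjusted p values of 0.0845 to 0.122.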

How the data were processed

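RNA of 9 PBMC libraries was profiled in 3 groups of 3. Per the file headers, the authors' table gives exon reads as raw counts, uniquely mapped exon reads, junction reads, intron reads and RPKM on rn6 coordinates. Per the submitters' processing notes, rn6 and FastQC were used. For the aligner and counting rules, nothing is given in the sources used here. Some deposited columns are formally estimated counts, because fractions stand on 8 broken lines of 22085, which were left out; no rounding was needed. RPKM values are the authors' own and served only for levels between genes. 72 per-sample value columns were not used.

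Counts were fitted with edgeR 4.0.16 in R 4.3.3 (TMM, filterByExpr, robust quasi-likelihood F-test, 1 mean per group over all libraries), with Benjamini-Hochberg adjustment at 0.05 over 12447 genes. The fit was checked on simulated counts. SEs come from the F statistic. Alternatives are given in the closing section. Limits of 3 reads cover counting error only. No pair of libraries of the same group agreed within sampling noise, and pairs across groups were not compared in this way.

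The members and lists were chosen with earlier results of these data known. The text names the 9 members, all called genes of the other ER lists (up to 4 each way), Hspa5, Hyou1, Xbp1, Atf4, Ddit3, Ero1a and Tapbp, the nearest genes on either side of Erp27, and the 5 genes closest to it in pattern. RefSeq sequences are of GRCr8 and were matched by symbol; no rn6 coordinate was converted.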

Additional observations from a re-analysis of the deposited data

Results flagged for a closer look

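Herpud1 differed between the 2 SuHx time points: its log2 fold change from day 28 to day 56 was 1.50 (SE 0.20), with 217, 169 and 217 CPM at day 56 and 90.4, 57.8 and 65.0 CPM at day 28. The difference itself passed edgeR's quasi-likelihood test (adjusted p = 0.0285). No value of the 9 members called for a closer look in this way. Groups of 3 libraries are too small for the test of single outlying samples.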

How the results depend on the processing

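In 18 alternatives, Erp27 stayed at log2 fold changes of 3.52 to 3.84 at day 28 and 3.82 to 4.31 at day 56. Of 486 values of members, 478 moved by less than the spread between replicates and 8 by more, 7 of them with the intron share as a covariate. That share differs between the groups, so a fit with it may also take up part of the group difference. Counts of called genes depended strongly on the settings. At day 28, edgeR called 16 genes (11 higher, 5 lower). This became 8 with RLE factors (8 higher, 0 lower), 79 with upper-quartile factors (31 higher, 48 lower), 151 without a filter, 72 with uniquely mapped reads, 2 with only the 2 groups compared, 1 with the intron share, and 1661 with DESeq2. At day 56, 886 became 348 with only the 2 groups, 138 with the intron share and 2328 with DESeq2. Between day 56 and day 28, 68 became 590 with only the 2 groups and 1057 with DESeq2. Among the 78 other ER genes, DESeq2 called 10 at day 28, 14 at day 56 and 4 between the days. The intron share left 1 at day 56, and the fit of only 2 groups gave 2 between the days. The causes were not tested.

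Leaving out 1 library at a time gave 2 to 5732 called genes at day 28, 85 to 5453 at day 56 and 3 to 1002 between the days. The highest count of each came without the first normoxia library. Among the other ER genes the ranges were 0 to 37, 1 to 38 and 0 to 2. Replicate numbers are shared between groups. Same-numbered libraries deviated together by a correlation over 0.1 in 4 of 9 pairs (-0.18 to 0.25). Differently numbered pairs ran from -0.31 to 0.32. With so few libraries these values cannot settle whether equal numbers mark a shared animal or batch. With a replicate block, 223 genes were called at day 28 (52 higher, 171 lower), 540 at day 56 and 186 between the days, together with 0, 2 and 1 of the other ER genes. At day 56 the block called the members Erp27 and Pdia4, beside 4.34% of all genes. The members were chosen with these data known, so nothing is read from this. Counting error weighs most on Erp27 in normoxia, with 49 to 109 exon reads per library.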
